A study of Mus musculus with 6 samples.

Results

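The complement system was followed in bone marrow-derived macrophages (BMMs) through the genes of 9 of its components and receptors, *C1qa*, *C1qb*, *C1qc*, *C3*, *C3ar1*, *C5ar1*, *Cfb*, *Cfp* and *Cd55*. A gene was taken by the probe set that the array's annotation pairs with its symbol alone, and by the brightest one, by mean over the 6 arrays, where it had several. Of the 9 genes, 8 had such a probe set, 1 each, among 19938 genes that did, and *C3* was not analysed here. BMMs were grown with M-CSF from tibial bone marrow of 9-week-old mice, female C57BL in the study's methods, and then kept for 24 h under 1 of 2 conditions. Of the 6 samples, 3 received rGDF11 (100 ng/ml) together with RANKL (50 ng/ml) and M-CSF (100 ng/ml), and 3 received vehicle with the same doses of RANKL and M-CSF. All cells therefore had RANKL, the cytokine that turns macrophages into osteoclasts, and GDF11, a ligand of the TGF-β superfamily, was the difference between the groups. The labels call the samples biological replicates without saying whether a mouse or a pool gave each one, and the p-values below cover only the spread among these 6 samples. Levels are RMA values on the log2 scale, in which 1 unit is a 2-fold difference. The conditions were tested against each other with limma, with adjustment over 23410 probe sets, and "rose" and "fell" are used at an adjusted p under 0.05.

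Complement is a cascade of plasma proteases and binding proteins that tags microbes and dying cells. The classical pathway starts when C1q binds a target, the lectin pathway when ficolins or mannose-binding lectin do, and the alternative pathway is kept going by factor B and properdin. All lead to cleavage of C3, to the small fragments C3a and C5a that attract and activate leukocytes through their receptors, and to the membrane attack complex. Most plasma components come from the liver, but macrophages make C1q and properdin themselves and carry many of the receptors. Receptors for C3a and C5a are also known on osteoclasts.

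With rGDF11, 5 of the 8 genes fell, *Cfp*, *Cd55*, *Cfb*, *C5ar1* and *C3ar1*, while *C1qa* rose and *C1qb* and *C1qc* did not pass the test. Over all probe sets tested, 8.64% fell and 7.31% rose, 16.0% in either direction. The falls were between 1.25-fold for *C3ar1* and 1.61-fold for *Cd55*, and the rise of *C1qa* was 1.26-fold. The median log2 fold change of the 8 genes was −0.34, beside 0.02 over all probe sets tested. The arrays with and without rGDF11 did not overlap for 7 of the 8 genes. Of all probe sets 32.9% showed such a separation, and of the brightest 25% of them 58.1% did. The methods' threshold asks for a 1.5-fold difference and p under 0.01 without adjustment, and it was applied here to limma's p. By it 2 of the 8 were lower, *Cfp* and *Cd55*, where 2.96% of probe sets were, and 0 were higher, where 2.06% were. Among the brightest 25% of probe sets, where 6 of the 8 genes lay, 15.9% fell and 11.9% rose. Of those 6 genes 3 fell and 1 rose, while *Cfb* and *Cd55*, which also fell, were dim and below the median of all probe sets.

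**Figure D1:**
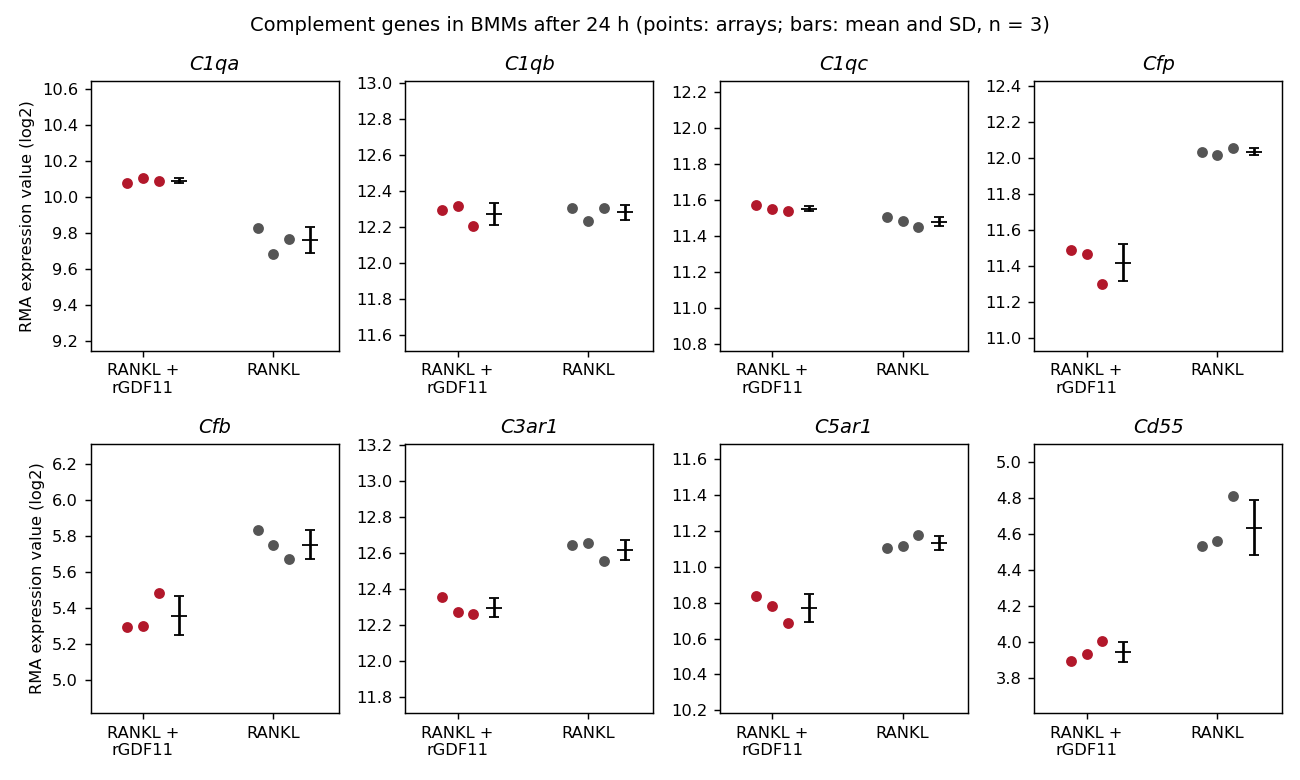
RMA expression value (log2, vertical axis) of 8 complement genes in BMMs kept for 24 h with RANKL and rGDF11 (red) or with RANKL (grey). Points are arrays and bars the mean and SD of 3 arrays, and every panel spans the same range of 1.5 log2 units. *Cfp*, *Cfb*, *C3ar1*, *C5ar1* and *Cd55* lie lower with rGDF11, *C1qa* lies higher, and the groups overlap for *C1qb* only.

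The recognition molecule of the classical pathway, C1q, is assembled from A, B and C chains encoded by *C1qa*, *C1qb* and *C1qc*. These genes lie next to each other on mouse chromosome 4, with 0 protein-coding genes between neighbours in the RefSeq annotation of assembly GRCm38.p6. *C1qa* (probe set 10517517) read 10.08, 10.11 and 10.09 on the arrays with rGDF11, against 9.83, 9.69 and 9.77 on the arrays with RANKL alone. Every array with rGDF11 was higher, and those 3 arrays lay within a narrower range than the other 3. The log2 fold change was 0.33 (standard error 0.06; limma, adjusted p = 0.0103). *C1qb* (probe set 10517508) read 12.30, 12.32 and 12.21 with rGDF11, against 12.31, 12.24 and 12.31 with RANKL alone. The groups overlapped, and the log2 fold change of −0.01 had a 95% interval of −0.16 to 0.14 (limma, adjusted p = 0.948). *C1qc* (probe set 10517513) read 11.57, 11.55 and 11.54 with rGDF11, against 11.51, 11.48 and 11.45 with RANKL alone. The groups stood apart by only 0.033, the log2 fold change of 0.07 had a 95% interval of −0.06 to 0.21, and the gene did not pass limma's test (adjusted p = 0.483). Taken within each array, the change of *C1qa* exceeded that of *C1qb* by 0.34 (standard error 0.04) and that of *C1qc* by 0.26 (standard error 0.04), each with an exact two-sided permutation p = 0.1, the smallest that 3 arrays against 3 allow. These were 2 of 6 such gene pairs compared, all picked after their values were seen, and adjusted over the 6 pairs the p was 0.12.

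The other proteins of the classical pathway, the C1r and C1s proteases, C2 and C4, are made mainly by the liver. None of the 6 genes measured besides the C1q chains passed the test, and all 6 lay below the median of all probe sets, at 6.15. Of all probe sets not above that median, 4.72% passed in either direction. *C4b* and *C4a*, which encode forms of C4, differed by 0.12 and 0.22 on the log2 scale (limma, adjusted p = 0.524 and 0.599). *C1ra*, singled out after its value was seen, had a log2 fold change of −0.46 with a 95% interval of −0.83 to −0.10 (limma, adjusted p = 0.0933). A further probe set, at 5.55 ± 0.15 with rGDF11 and 6.37 ± 0.09 with RANKL alone (SD, n = 3 arrays per group), was paired with *C1ra* and *C1rb* together and cannot be given to either gene. It differed by −0.82 on the log2 scale (limma, adjusted p = 0.000796).

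Properdin, encoded by *Cfp*, stabilises the convertase of the alternative pathway, and factor B, encoded by *Cfb*, is the protease of that convertase. Both fell. *Cfp* (probe set 10603860) read 11.49, 11.46 and 11.30 with rGDF11, against 12.03, 12.02 and 12.06 with RANKL alone. The groups stood 0.53 apart, and the array lowest among those with rGDF11 was the third replicate. *Cfp* was 1.53-fold lower, with a log2 fold change of −0.62 (standard error 0.07; limma, adjusted p = 0.000854). *Cfb* (probe set 10450325) read 5.29, 5.30 and 5.48 with rGDF11, against 5.83, 5.75 and 5.67 with RANKL alone. These values are below the median of all probe sets, and the groups stood 0.19 apart, with the third replicate of each group nearest to the other group. *Cfb* was 1.31-fold lower, with a log2 fold change of −0.40 (standard error 0.08; limma, adjusted p = 0.0125). That call was lost without the first rGDF11 replicate (adjusted p = 0.0536 from limma) and by the methods' t-test (adjusted p = 0.0545). Within arrays the changes of *Cfp* and *Cfb* differed by −0.22 (standard error 0.13; exact two-sided permutation p = 0.1, and 0.12 adjusted over the 6 pairs). The groups nearly met, as *Cfp* minus *Cfb* was at most 6.1999 with rGDF11 and at least 6.2011 with RANKL alone. This pair too was picked after its values were seen. *C2*, which encodes the protease of the classical convertase and lies beside *Cfb* on chromosome 17, differed by 0.09 on the log2 scale (95% interval −0.10 to 0.28; limma, adjusted p = 0.542).

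The receptors of the fragments C3a and C5a, which are coupled to G proteins, both fell. *C3ar1* (probe set 10547657), the C3a receptor, read 12.36, 12.27 and 12.26 with rGDF11, against 12.65, 12.66 and 12.55 with RANKL alone. The groups stood 0.20 apart, and each was tight. *C3ar1* was 1.25-fold lower, with a log2 fold change of −0.32 (standard error 0.06; limma, adjusted p = 0.0125). *C5ar1* (probe set 10560242), the main C5a receptor, read 10.84, 10.78 and 10.69 with rGDF11, against 11.11, 11.12 and 11.18 with RANKL alone. All 3 arrays with rGDF11 were lower, by at least 0.27. *C5ar1* was 1.29-fold lower, with a log2 fold change of −0.36 (standard error 0.07; limma, adjusted p = 0.00813).

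The second C5a receptor, *C5ar2*, which binds C5a without coupling to G proteins, moved the other way. *C5ar2* (probe set 10560237) lies beside *C5ar1* on chromosome 7 and read 9.07, 8.96 and 9.00 with rGDF11, against 8.37, 8.37 and 8.53 with RANKL alone. All 3 arrays with rGDF11 were higher, and the gene rose by 0.59 on the log2 scale (standard error 0.07; limma, adjusted p = 0.00122). Within each array, the value of *C5ar2* minus that of *C5ar1* was between −1.83 and −1.68 with rGDF11 and between −2.75 and −2.64 with RANKL alone. The changes of the receptors for C5a therefore differed by 0.95 (standard error 0.05; exact two-sided permutation p = 0.1, the smallest possible, and 0.12 adjusted over the 6 pairs). RefSeq windows from 250 bases before to 50 after the start site are shown for this pair, from GRCm38.p6 and on the strand of the gene, to set side by side the starts of neighbouring genes with opposite changes. Capitals mark CAGACA, a Smad element, or its reverse complement TGTCTG, and the window of *C5ar1* holds none of the motifs searched. *C5ar2* has a second window, at chr7:16244105-16244404, which holds none either. Of all start-site windows, 21.0% held CAGACA on either strand. Among the neighbours *Itgam* and *Itgax*, described below, the match lay in *Itgam*, which fell, and not in *Itgax*, which rose. A part of the motif in these changes was not tested.
C5ar2, chr7:16242282-16242581, minus strand: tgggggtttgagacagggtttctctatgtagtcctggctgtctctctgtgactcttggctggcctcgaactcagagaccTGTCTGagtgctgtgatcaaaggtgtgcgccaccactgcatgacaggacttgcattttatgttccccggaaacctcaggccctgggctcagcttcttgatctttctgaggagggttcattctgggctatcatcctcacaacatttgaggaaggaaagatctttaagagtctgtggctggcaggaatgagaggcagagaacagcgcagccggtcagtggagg
C5ar1, chr7:16259289-16259588, minus strand: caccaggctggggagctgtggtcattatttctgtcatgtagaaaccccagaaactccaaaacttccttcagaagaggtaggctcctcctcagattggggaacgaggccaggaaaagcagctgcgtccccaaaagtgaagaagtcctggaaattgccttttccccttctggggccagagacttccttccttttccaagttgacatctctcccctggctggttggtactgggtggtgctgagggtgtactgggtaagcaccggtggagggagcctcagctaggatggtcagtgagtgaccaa

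**Figure D2:**
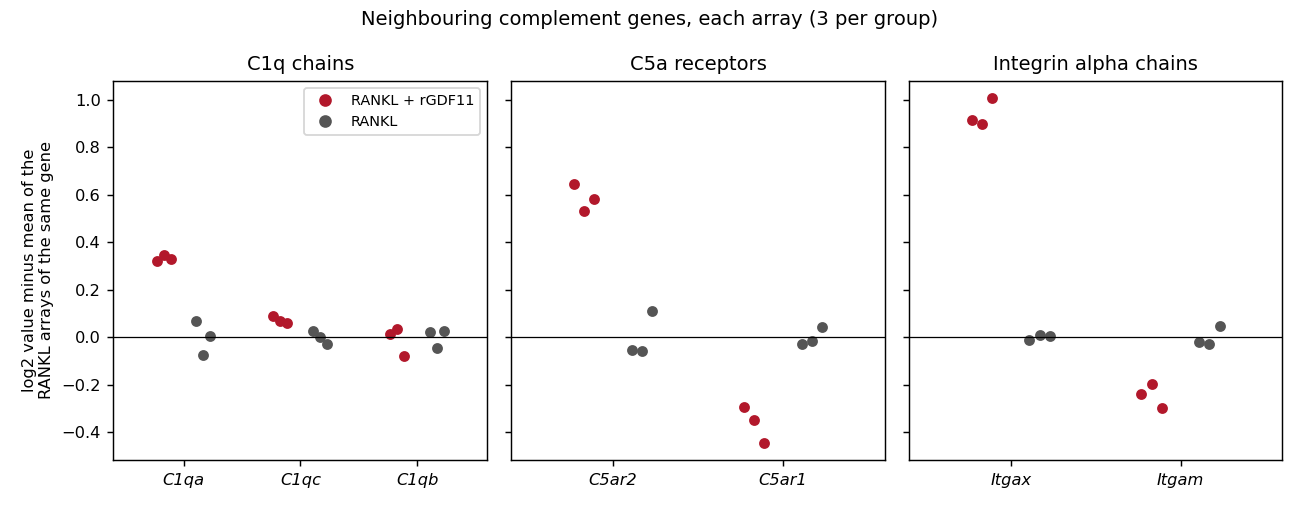
Log2 value of each array minus the mean of the RANKL arrays of the same gene (vertical axis) for the C1q chains, the C5a receptors and the integrin α chains of complement receptors 3 and 4, each set being neighbours in the genome. Points are arrays, 3 with RANKL and rGDF11 (red) and 3 with RANKL (grey); *C5ar2* and *Itgax* lie above the grey points and *C5ar1* and *Itgam* below them, and of the C1q chains *C1qa* moves furthest.

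*Cd55* encodes decay-accelerating factor, a membrane protein that breaks up C3 and C5 convertases on the cell's own surface. *Cd55* (probe set 10357488) read 3.89, 3.93 and 4.004 with rGDF11, against 4.53, 4.56 and 4.81 with RANKL alone. The groups stood 0.53 apart. *Cd55* was 1.61-fold lower, with a log2 fold change of −0.69 (standard error 0.09; limma, adjusted p = 0.00139). The gene was dim, with only 17.1% of genes at a lower mean, and with no detection calls in the deposited table it was not shown to be above background. The neighbouring paralogue *Cd55b* differed by −0.10 (limma, adjusted p = 0.385), at a level of 3.11 with rGDF11 and 3.21 with RANKL alone, and whether probes of one copy also bind the other was not tested.

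Of the other membrane-bound regulators, *Cd59a*, whose product blocks the membrane attack complex, fell 1.39-fold, with 8.71, 8.64 and 8.53 with rGDF11 against 9.09, 9.13 and 9.07 with RANKL alone (limma, adjusted p = 0.00272). Its neighbour *Cd59b* differed by 0.05 on the log2 scale (adjusted p = 0.870 from limma), and *Cr1l*, the rodent Crry that inhibits C3 convertases, by −0.21 (95% interval −0.43 to 0.01; adjusted p = 0.202). *Susd4*, which restrains the classical and lectin convertases, differed by 0.23 (limma, adjusted p = 0.114). The changes of *Cd55* and *Cd59a* differed by −0.22 within arrays (standard error 0.13; exact two-sided permutation p = 0.3, equal to 0.3 adjusted over the 6 pairs). Of the 8 membrane-bound regulators measured, 2 fell, *Cd55* and *Cd59a*, 0 rose and 6 did not pass, beside 8.64% and 7.31% of all probe sets. Of 5 soluble regulators, among them *Serping1*, which encodes the C1 inhibitor, *Vtn* and *Clu*, all were below the median of all probe sets and none passed (lowest adjusted p = 0.287, limma).

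Among the other receptors, those with the largest changes were an integrin chain that rose and a C-type lectin domain protein that fell. *Itgax* encodes CD11c, the α chain of complement receptor 4, and read 8.01, 7.995 and 8.10 with rGDF11, against 7.09, 7.11 and 7.10 with RANKL alone. It rose 1.92-fold (log2 fold change 0.94, standard error 0.06; limma, adjusted p = 5.54e-05). *Itgam*, its neighbour on chromosome 7, encodes CD11b, the α chain of complement receptor 3, and *Itgb2* the β chain that both receptors share. *Itgb2* read 10.88, 10.92 and 10.92 with rGDF11, against 11.21, 11.24 and 11.27 with RANKL alone, and fell 1.26-fold (limma, adjusted p = 0.00666). *Itgam* read 10.80, 10.85 and 10.75 with rGDF11, against 11.02, 11.02 and 11.09 with RANKL alone, a difference of −0.24 on the log2 scale (limma, adjusted p = 0.0331). The call on *Itgam* was lost whichever single array was left out (adjusted p = 0.0542 to 0.108), so it was near the threshold. Further probe sets, paired with *Itgam* and *Rpl35* together, differed by −0.06 to −0.05 (limma, adjusted p = 0.562 to 0.634) and cannot be given to either gene. The change of *Itgax* exceeded that of *Itgam* by 1.18 within arrays (standard error 0.07; exact two-sided permutation p = 0.1, and 0.12 adjusted over the 6 pairs).

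*Cd93*, once described as a C1q receptor and known for its part in the uptake of dying cells, read 10.82, 10.75 and 10.72 with rGDF11, against 11.63, 11.67 and 11.61 with RANKL alone. It was 1.83-fold lower, and the groups stood 0.79 apart (limma, adjusted p = 7.27e-05). *Calr*, a chaperone of the endoplasmic reticulum that also binds C1q at the cell surface, was 1.31-fold lower (limma, adjusted p = 0.00604). *Lrp1*, its partner in uptake, had a log2 fold change of −0.25 with a 95% interval of −0.41 to −0.08 and did not pass (limma, adjusted p = 0.0529). *Vsig4*, a C3b receptor of tissue macrophages, and *Cr2* lay below the median of all probe sets and did not pass (limma, adjusted p = 0.644 and 0.979).

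The lectin pathway and the terminal components were mostly dim. *Fcna*, the ficolin that macrophages make, read 6.16, 6.14 and 6.07 with rGDF11, against 6.92, 7.03 and 6.94 with RANKL alone. It was 1.79-fold lower (limma, adjusted p = 0.000112). *Fcna* was the 1 called gene of 8 in the lectin pathway, beside 16.0% of all probe sets called in either direction. The other ficolin, *Fcnb*, known from neutrophils and monocytes, had a log2 fold change of 0.34 (95% interval 0.10 to 0.59; limma, adjusted p = 0.0696). *Colec11*, a collectin, and *Mbl2*, a mannose-binding lectin, differed by 0.04 and 0.03 on the log2 scale (limma, adjusted p = 0.807 and 0.936). Of 7 terminal components, from *Hc*, which encodes C5, to *C9*, all were below the median of all probe sets, between 3.86 and 5.29, and 0 passed (lowest adjusted p = 0.465, limma). Of all probe sets not above the median, 4.72% passed in either direction.

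A list of 53 complement genes, written from background knowledge by role and including the 9 genes above, had 50 with a probe set of their own. It was written with earlier results of these data known. Of the 50, 11 fell, 3 rose and 36 did not pass, beside the 8.64% and 7.31% of all probe sets. The median log2 fold change of the list was 0.02, the same to 2 decimals as over all probe sets tested. Most of the called genes were bright. Of 17 genes above the median of all probe sets 12 were called, 9 lower and 3 higher, and of 33 below it 2 were, *Cfb* and *Cd55*. Of all probe sets, 15.1% of those above the median fell and 12.1% rose, and 2.19% and 2.53% of those below it did. By role, 6 of 11 receptors fell and 2 rose, with 9 of the 11 above the median. Among the 6 are *Itgam*, whose call was near the threshold, and *Calr*, a chaperone that also binds C1q. Of 7 terminal components and 5 soluble regulators, all below the median, 0 were called, and the difference between roles was not tested.

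**Figure D3:**
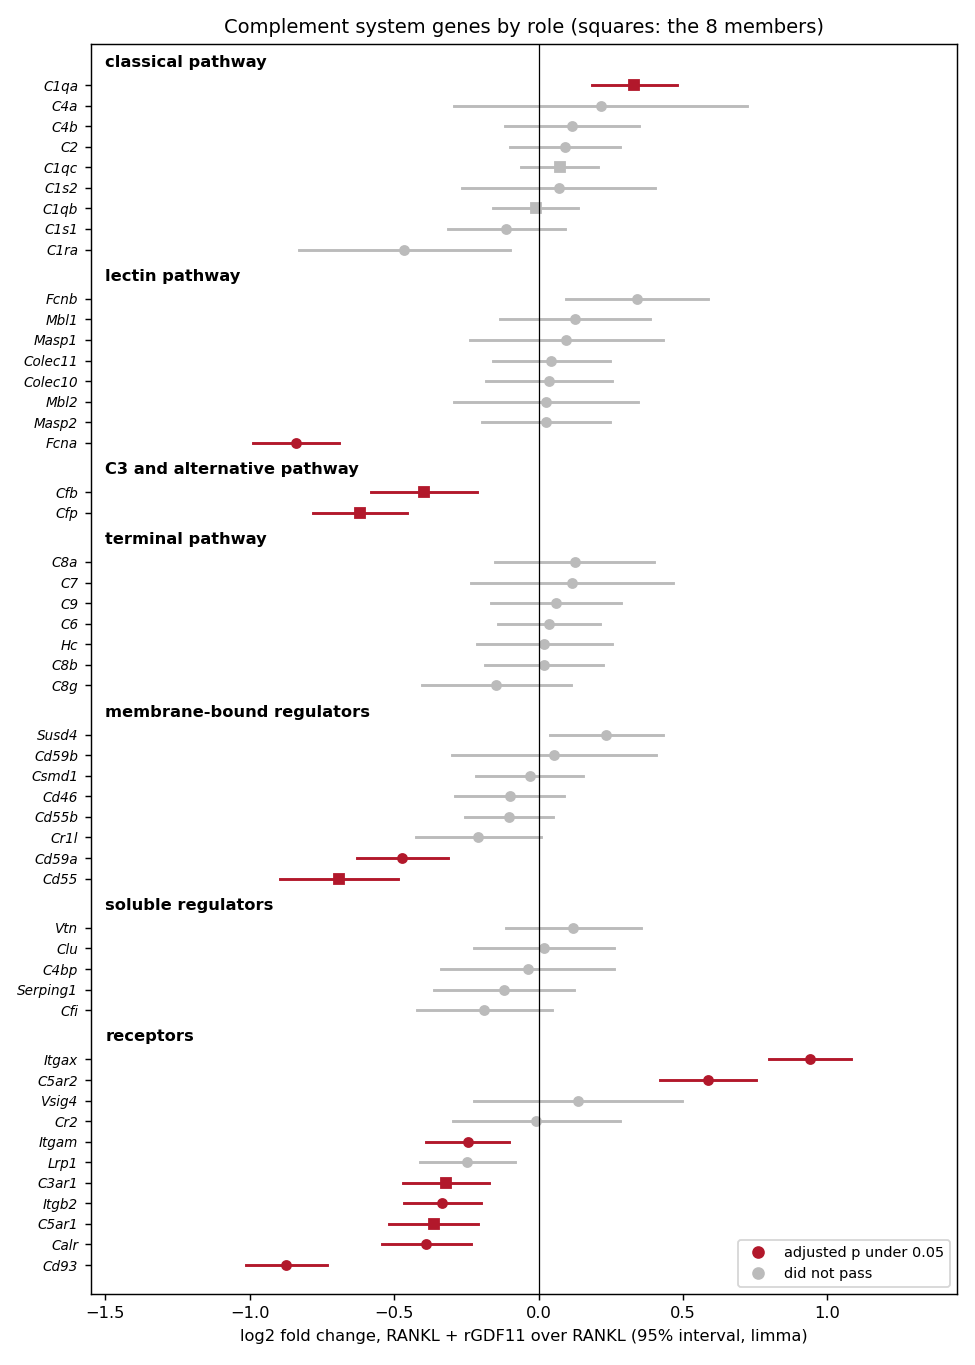
Log2 fold change of rGDF11 with RANKL over RANKL alone (horizontal axis), with 95% intervals from limma, for 50 complement genes grouped by role, 3 arrays per group. Red passed at an adjusted p under 0.05 and squares are the 8 genes described first; 6 of 11 receptors lie to the left in red and *Itgax* and *C5ar2* to the right, and no terminal component or soluble regulator is red.

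**Figure D4:**
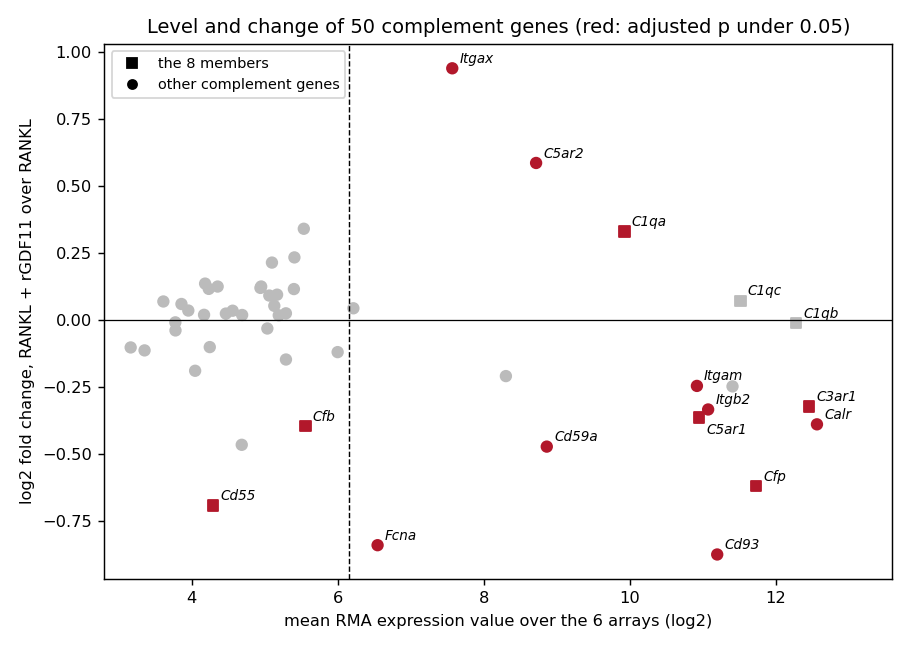
Log2 fold change (RANKL + rGDF11 over RANKL, vertical axis) against the mean RMA expression value over the 6 arrays (log2, horizontal axis) for the same 50 genes, with red for an adjusted p under 0.05, squares for the 8 genes described first and a dashed line at 6.15, the median of all tested probe sets. Of 17 genes to the right of the line 12 are red, and of 33 to the left *Cfb* and *Cd55* are.

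Start-site windows of 300 bases were present for 6 of the 8 genes, *C1qb*, *C1qc*, *C3ar1*, *C5ar1*, *Cfp* and *Cd55*. They were searched on both strands for the core of the interferon-stimulated response element, the STAT site TTCNNNGAA, the AP-1 site TGANTCA, the palindromic Smad element GTCTAGAC and the shorter Smad element CAGACA, where N is any base. The Smad motifs share the letters AGAC. Of all 32851 windows in the table, 3.44%, 8.30%, 7.81%, 0.213% and 21.0% held these in the same order. Of the 6 genes, *C3ar1* held an AP-1 match, *C3ar1* and *C1qc* held CAGACA, and 0 held any of the other 3 motifs. *Itgax*, which rose, held an AP-1 match as well. The windows of *C3ar1*, which fell, and *Itgax* are given from RefSeq, GRCm38.p6, because they hold the AP-1 matches of the genes named here, and capitals mark the AP-1 matches and, in *C3ar1* alone, the Smad match. A match is a run of letters and not a measured binding site.
C3ar1, chr6:122856108-122856407, minus strand: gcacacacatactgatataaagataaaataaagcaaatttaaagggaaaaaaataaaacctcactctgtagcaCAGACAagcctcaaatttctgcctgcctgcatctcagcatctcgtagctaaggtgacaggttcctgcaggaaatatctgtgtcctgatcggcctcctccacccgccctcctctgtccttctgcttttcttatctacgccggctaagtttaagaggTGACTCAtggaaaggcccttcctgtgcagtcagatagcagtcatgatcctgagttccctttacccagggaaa
Itgax, chr7:128129300-128129599, plus strand: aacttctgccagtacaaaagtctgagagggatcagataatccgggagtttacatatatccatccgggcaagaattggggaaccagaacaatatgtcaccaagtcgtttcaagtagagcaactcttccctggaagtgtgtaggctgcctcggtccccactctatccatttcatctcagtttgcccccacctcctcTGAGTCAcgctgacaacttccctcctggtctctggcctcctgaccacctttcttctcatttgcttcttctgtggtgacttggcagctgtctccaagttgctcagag

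Genes with the most similar pattern were found by the Euclidean distance between their 6 log2 values, each taken relative to the gene's own mean. The nearest gene to *Cfp* was *Apobec1* (distance 0.07), that to *Cd55* was *Klf4* (0.07) and that to *Cfb* was *Hdac7* (0.07). The nearest to *C3ar1* were *Dipk1a* and *Cd53* (both 0.05), that to *C5ar1* was *Ppp1r15a* (0.02) and that to *C1qa* was *Letm1* (0.06). These are descriptions over 6 arrays of 2 groups, in which genes of like fold change and small spread lie close to each other.

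All 8 macrophage markers were above the median of all probe sets, between 8.18 and 13.0, and 5 of them fell with rGDF11, beside 15.1% of all probe sets above the median. The 5 include *Itgam*, counted above as a receptor. Their summed linear RMA value was 23500 to 24800 with rGDF11 and 29000 to 29500 with RANKL alone. Of these markers *Fcgr1* (log2 fold change −1.41) and *Cd14* (−1.06) moved further than any of the 8 complement genes, and *Adgre1* (−0.51) and *Cd68* (−0.28) also fell. *Csf1r* (−0.08), *Lyz2* (−0.02) and *Mertk* (0.06) did not pass. Of 8 neutrophil markers 4 were above the median, *S100a8* (0.71) and *Ngp* (1.003) rose and 0 fell, beside 7.31% and 8.64% of all probe sets. The others did not pass, with log2 fold changes from −0.22 (*Ly6g*) to 0.26 (*Elane*). The sum of the 8 was 1040 to 1220 with rGDF11 and 697 to 768 with RANKL alone. *Ngp*, at 9.28 with rGDF11 and 8.28 with RANKL alone, was the brightest and weighed most in that sum. Of 33 markers of 8 further cell types 6 were above the median, 3 rose and 4 fell, beside the same shares of all probe sets, 7.31% and 8.64%. *Col1a1* (0.63), *Col1a2* (0.65) and *Flt3* (0.25) rose. *Cd79b* (−1.19), *Pf4* (−1.10), *Ppbp* (−0.34) and *Cd4* (−0.25) fell. The part of any of these in the results was not tested, and in bulk RNA fewer cells of a type and less RNA per cell cannot be told apart.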

How the data were processed

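Total RNA of 6 BMM samples, 3 with RANKL and rGDF11 and 3 with RANKL, was read on Affymetrix Mouse Gene 1.0 ST arrays. The deposited log2 values were made by the authors with the robust multichip average (RMA), with the programs Transcriptome Analysis Console 3.0 and Expression Console. Background correction, normalization and the summary of probes are thus already in them. Precision is limited by the number of arrays, which have no depth. Of 35556 probe sets, 21789 were paired with 1 symbol, 1621 with several and 12146 with none, and Entrez identifiers matched 21698 of the 21789 in RefSeq (GRCm38.p6) with 0 symbols changed.

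The 23410 probe sets with a symbol were tested with limma 3.58.1 in R 4.3.3 (lmFit, eBayes without trend, two-sided, Benjamini-Hochberg). The median of the arrays lay between 6.11 and 6.18, and arrays correlated at 0.997 to 0.998 within groups and 0.989 to 0.991 between groups, across probe sets. The fit was tested on simulated data. Exact permutation tests over arrays used scipy 1.17.1. The genes and lists were chosen with earlier results of these data known. Named were all 8 genes, every called gene of the wider list and the nearest genes by pattern. Up to 3 further genes per role with the highest mean were named, except for the terminal components, where *Hc* and *C9* mark the ends. *C1ra*, *Cd55b* and the marker genes were added after their values were seen. Alternatives covered rows, dim-row filters, normalization, spread, the methods' t-test, the replicate block, each array left out, probe set and threshold.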

Additional observations from a re-analysis of the deposited data

How the results depend on the processing

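The log2 fold changes of *C1qa*, *Cfp*, *Cd55*, *C3ar1* and *C5ar1* kept their direction, and their call at an adjusted p under 0.05, under every alternative fit that tested them. These were 15 for *Cd55* and 17 for each of the others, without the stricter thresholds given below, and *C1qc* stayed short of the threshold in all 17. Over these alternatives the values were 0.29 to 0.37 for *C1qa*, −0.65 to −0.56 for *Cfp*, −0.74 to −0.60 for *Cd55*, −0.35 to −0.30 for *C3ar1* and −0.40 to −0.32 for *C5ar1*. *Cfb* stayed at −0.46 to −0.35, with −0.40 and no call by the methods' t-test and −0.36 and no call without the first rGDF11 replicate. *C1qb*, at −0.01, had 0.0156 after another quantile normalization and values of −0.034 to 0.024 when 1 array was left out, positive without the third rGDF11, the first or the third control replicate, and no call in any. The cause was not tested.

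Of the 8 genes, 5 were lower and 1 higher. At an adjusted p under 0.01 these were 3 and 0, and at a fold change of 1.5 with an unadjusted limma p under 0.01 they were 2 and 0. With dim probe sets left out by either filter 3 were lower, since *Cfb* and *Cd55* were then not tested. For the wider list, 11 lower became 4 at the fold change of 1.5. Over all probe sets, 1712 higher and 2023 lower became 845 and 1183 at an adjusted p under 0.01 and 483 and 694 at the fold change of 1.5, and the higher count was 1129 (without the first rGDF11 replicate) to 1357 when 1 array was left out. *Itgam* also lost its call with all rows tested (adjusted p = 0.0655, limma) and with arrays centred on the median (0.0516). Arrays with the same replicate number correlated in their deviations at 0.06, 0.33 and −0.00083, not above 0.1 in every pair, and they were not taken as paired. With the replicate number as a block 5 of the 8 genes were lower and 1 higher, the wider list had 10 and 4, all probe sets had 1943 and 1676, and *Itgam* had an adjusted p of 0.0657 from limma. No detection calls exist for the table, which limits statements on *Cd55*, *Cfb* and other dim genes.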
